A study of Homo sapiens with 4 samples.

Results

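Long intergenic noncoding RNAs (lincRNAs) are RNA polymerase II transcripts without a recognised coding sequence that lie mostly between protein-coding genes. The genes described here are the 178 of 26518 measured genes that GENCODE release 29 on hg38 types as lincRNA, that lie on an autosome and that averaged at least 3 TPM over all 4 libraries. TPM is a transcript level scaled for gene length and for the total of the library. They were thus chosen by their mean level in these libraries, and not on the difference between the groups. The 2 shSASH1 libraries came from MDA-MB-468 cells infected with a lentivirus that expresses a SASH1-shRNA, an RNA hairpin against the mRNA of the signalling scaffold SASH1. The 2 shControl libraries came from the same line infected with the pGIPZ-CTRL lentivirus. MDA-MB-468 is an established human breast cancer epithelial line, and in both groups the cells were selected with puromycin as stable clones and kept in DMEM with 5% FBS. The labels give neither the number of clones or hairpins nor whether replicates were separate cultures, so the p-values measure the spread between these libraries, which may be technical.

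Several ways of acting are known for lincRNAs. MALAT1 resides in nuclear speckles and NEAT1 builds paraspeckles, NORAD binds Pumilio proteins in the cytoplasm, and other lincRNAs serve as the precursor from which a small nucleolar RNA or a microRNA is cut. Many start head to head with a protein-coding gene and share its promoter region, and some act on the gene beside them while others have no described function. The comparison of shSASH1 with shControl asked which of these RNAs differ when SASH1 is depleted.

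SASH1 stood at 3.65 and 4.01 TPM in shSASH1, against 14.99 and 13.03 TPM in shControl (log2 change -1.63 ± 0.13, adjusted p = 0.00391, limma, Benjamini-Hochberg over all genes tested). The log2 changes here are shSASH1 over shControl on the log2(TPM + 1) scale with their standard error, which understates the change of genes with a low level. Without either of the shControl libraries SASH1 did not pass, as given under the dependence on processing. The line's epithelial markers were high in every library, with EPCAM at 543 and 559 TPM in shSASH1, against 629.6 and 616 TPM in shControl, while the progesterone receptor gene PGR was at 0 or 0.0248 TPM and ESR1 at 2.79 and 3.64 TPM in shSASH1, against 2.58 and 2.29 TPM in shControl. Leukocyte genes were at or near 0, with PTPRC at 0.0831 and 0.104 TPM in shSASH1, against 0 and 0 TPM in shControl. The estimated reads behind these values, rebuilt from TPM and exon length, were 24323633 and 19519095 in shSASH1 and 20756474 and 24171766 in shControl. The shSASH1 libraries differed more from each other than the shControl libraries did, with a median within-group SD over all tested genes of 0.126 in shSASH1 and 0.0507 in shControl on the log2 scale. Among the lincRNAs these SDs were 0.276 in shSASH1 and 0.0941 in shControl.

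Of the 178 lincRNAs, 39 rose, 21 fell and 118 did not pass an adjusted p of 0.05. Those called made up 33.7%, where 32.0% of the 14458 genes tested were called, 18.8% as higher and 13.3% as lower, so the share of called lincRNAs was near the background. Without either of the shControl libraries limma called 0 of the 178, and 0 of the 14458 genes. At an unadjusted p under 0.05 there were then 51 lincRNAs of 3446 genes without shControl replicate 1 and 48 of 3326 without shControl replicate 2. Without shSASH1 replicate 1 there were 70 higher and 33 lower lincRNAs, and without shSASH1 replicate 2 there were 44 and 25. After quantile normalization the split over all genes was 2280 higher and 2434 lower, against 2712 higher and 1918 lower as deposited, while that of the lincRNAs was 38 higher and 23 lower. The median absolute log2 change was 0.50 for the lincRNAs against 0.31 over all tested genes, and the median signed change 0.22 against 0.06. When the absolute log2 change also had to reach 1, 22 lincRNAs were higher and 15 lower, or 20.8%, against 8.91% over all tested genes, of which 5.08% were higher and 3.83% lower. No overlap between groups was seen for 131 lincRNAs, 81 of them higher and 50 lower, or 73.6%, and the same share, 73.6%, was found over all tested genes. No test was run of the lincRNAs as a class against other genes. In RNA of many cells, fewer cells with a transcript and less of it per cell cannot be told apart.

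**Figure D1:**
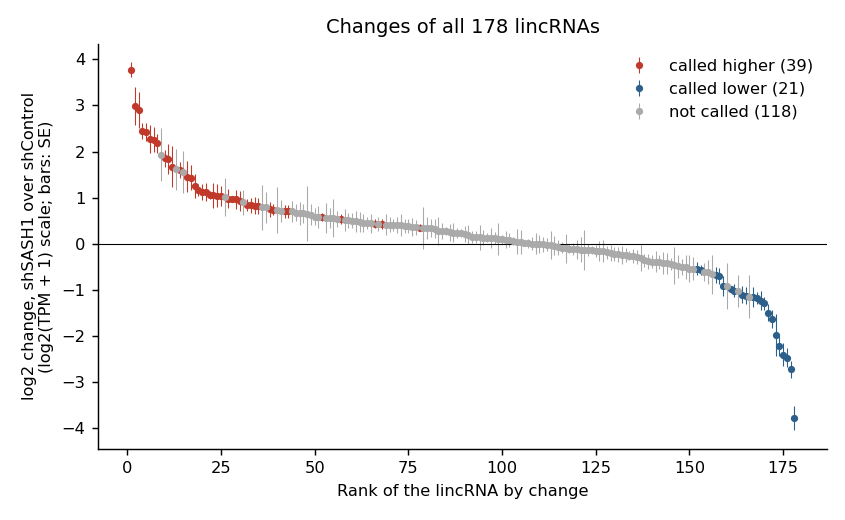
Log2 change of each of the 178 lincRNAs (shSASH1 over shControl, log2(TPM + 1) scale, y axis) by rank (x axis), with bars for the standard error from limma and n = 2 libraries a group. The 39 called higher are red, the 21 called lower are blue and the 118 not called are grey, and the changes run from 3.77 for AC009275.1 to -3.78 for LINC01819.

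Other gene classes under the same autosomal and level rule are given for comparison. Antisense RNAs had 39 of 290 higher and 29 lower, or 23.4% called, and 9.31% with an absolute change of 1 or more. Protein-coding genes had 2286 of 10878 higher and 1477 lower, or 34.6% called, and 7.44% with an absolute change of at least 1. Level and depth differed between the classes too. The median of the mean level was 6.64 TPM for the lincRNAs and 29.3 TPM for protein-coding genes, and the median of the mean rebuilt reads was 83.2 for the lincRNAs and 956 for protein-coding genes. A mean cut also lets in genes that reach it in 1 group only. That held for 36 lincRNAs with a group mean under 3 TPM, 15 in shSASH1 and 21 in shControl, and 9 of these were higher and 9 lower. Of the 142 with both group means at 3 TPM or more, 30 were higher, 12 lower and 14.8% passed with an absolute change of at least 1. The part of level, depth and spread in these shares was not tested.

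**Figure D2:**
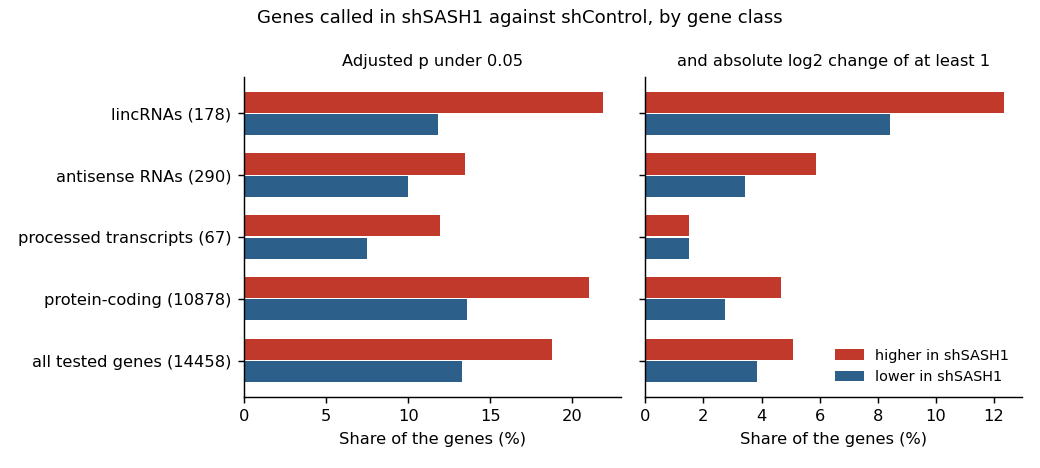
Share of genes called higher (red) and lower (blue) in shSASH1, in percent on the x axis, for the lincRNAs, for 3 other classes of autosomal genes of at least 3 TPM and for all tested genes (numbers in parentheses), at an adjusted p under 0.05 on the left and with a minimum absolute log2 change of 1 on the right. LincRNAs and protein-coding genes have similar shares on the left, 33.7% and 34.6% in all, and 20.8% and 7.44% on the right.

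The 178 lincRNAs summed to 3945 and 4839 TPM in shSASH1, against 3875 and 3673 TPM in shControl. A few RNAs held much of this, since 5 lincRNAs averaged 100 TPM or more, 60 were at 10 to 100 TPM and 113 at 3 to 10 TPM. MALAT1 alone took 24.9% and 29.3% of the sum in shSASH1 and 32.3% and 30.3% in shControl. Without MALAT1 the sums were 2962 and 3422 TPM in shSASH1, against 2625 and 2558 TPM in shControl. Just inside the level rule were KLHL7-DT at a mean of 3.003 TPM, DUBR at 3.02 and MIR34AHG at 3.08, and just outside it LINC01291 at 2.96, LINC01089 at 2.94 and LINC01942 at 2.94. A further 164 autosomal lincRNAs averaged 1 to 3 TPM, with 15 higher and 17 lower.

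The 4 most abundant lincRNAs did not pass the test. MALAT1 (chromosome 11, 65497688 to 65506516, plus strand), the nuclear speckle RNA, was at 983 and 1417 TPM in shSASH1, against 1250.3 and 1115 TPM in shControl (log2 change 0.00 ± 0.19, adjusted p = 0.9995). NEAT1 (chromosome 11, 65422774 to 65445540, plus strand), the scaffold of paraspeckles, was at 194 and 358 TPM in shSASH1, against 225 and 209.9 TPM in shControl (log2 change 0.28 ± 0.30, adjusted p = 0.505). In both RNAs shSASH1 replicate 2 was the highest library and replicate 1 the lowest, so the groups overlapped. LINC01895 (chromosome 18, 3347776 to 3350559, minus strand) was at 111 and 145 TPM in shSASH1, against 125 and 107 TPM in shControl, and its groups overlapped as well.

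**Figure D3:**
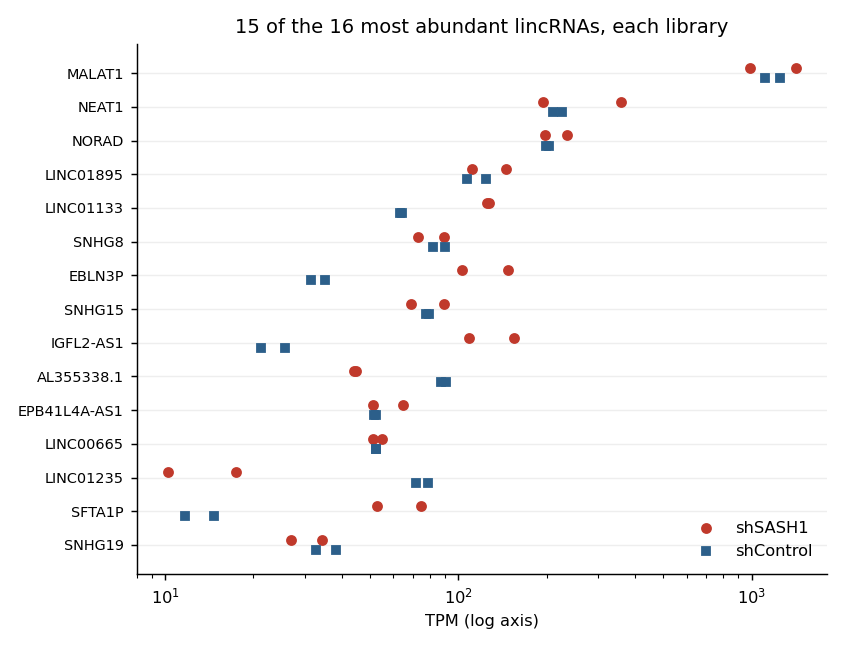
Level of 15 of the 16 most abundant lincRNAs in each library (TPM, log axis), with red circles for the 2 shSASH1 libraries and blue squares for the 2 shControl libraries. MALAT1, NEAT1, NORAD and LINC01895 overlap between the groups, while LINC01133, EBLN3P, IGFL2-AS1 and SFTA1P lie higher in shSASH1, and AL355338.1 and LINC01235 lie lower.

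NORAD (chromosome 20, 36045622 to 36050960, minus strand) is a cytoplasmic RNA that holds the Pumilio proteins, which repress mRNAs with the element UGUA, any base, AUA. NORAD was at 198 and 234 TPM in shSASH1, against 204 and 199.5 TPM in shControl (log2 change 0.09 ± 0.10, adjusted p = 0.483), and its groups overlapped. The longest NORAD transcript of 5339 bases holds 15 copies of the Pumilio element and that of HCG11 holds 16 in 5696 bases, or 2.81 per kb in each. No other lincRNA of the 178 has 10 or more, and 151 have none. HCG11 (chromosome 6, 26521709 to 26527404, plus strand), an RNA of the histone gene region, aligns with NORAD over 4660 bases at 90.4% identity, and rose, at 26.5 and 30.6 TPM in shSASH1, against 20.98 and 20.7 TPM in shControl (log2 change 0.43 ± 0.10, adjusted p = 0.0341). HCG11 was no longer called in 5 of 11 other settings, those with no filter, with no variance trend, with a replicate block, after a length and GC correction and with values centred on chromosome windows. A copy at 98% identity or more over 1036 bases also links NORAD to LINC02211, so reads could be shared between such genes. Of 4 Pumilio and NORAD partner genes, PUM2 rose by 0.20 on the log2 scale and none fell. Across all tested genes 18.8% rose and 13.3% fell. These 6 stretches of GENCODE transcripts, shown as the DNA letters of the annotation with the element in capitals, are 3 places where NORAD and HCG11 carry it in like surroundings:
NORAD, bases 761 to 768: ggaaggcctgTGTATATAatatgaaaaa
HCG11, bases 760 to 767: ggaaggcctgTGTATATAatatgaaaaa
NORAD, bases 3593 to 3600: aatgctactgTGTATATAatggaaaact
HCG11, bases 3581 to 3588: aatactactgTGTATATAatggaaaact
NORAD, bases 4599 to 4606: ttagcctattTGTAAATAcctttgttat
HCG11, bases 4909 to 4916: ttagccaattTGTAAATAcctttttata

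CYTOR and MIR4435-2HG are near copies on chromosome 2 whose longest transcripts align over 2254 bases at 99.2% identity, and the counting could split their reads. CYTOR (chromosome 2, 87454781 to 87636740, plus strand), also known as LINC00152, rose, at 8.03 and 8.03 TPM in shSASH1, against 4.16 and 3.89 TPM in shControl (log2 change 0.85 ± 0.13, adjusted p = 0.0123). MIR4435-2HG (chromosome 2, 111036776 to 111523376, minus strand) was at 18.96 and 13.9 TPM in shSASH1, against 11.2 and 11.1 TPM in shControl (log2 change 0.51 ± 0.17, adjusted p = 0.0777). Both were higher in shSASH1 without overlap, and only CYTOR passed. In all, 9 lincRNAs had a stretch of at least 200 bases at 98% identity or more in a transcript of another gene.

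Of 7 lincRNAs on the list of microRNA hosts, 1 fell, none rose and 6 did not pass. Among all tested genes 13.3% were lower and 18.8% higher. A microRNA is cut from a hairpin in the host's transcript, and its seed, bases 2 to 8, sets the mRNAs it pairs with; the microRNAs themselves were not measured. The sequences show what each host locus could yield and which of them share a seed, written from RefSeq on GRCh38.p14 with the seed in capitals:
hsa-miR-9-5p: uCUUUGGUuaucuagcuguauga
hsa-miR-9-3p: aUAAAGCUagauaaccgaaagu
hsa-miR-200c-3p: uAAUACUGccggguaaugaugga
hsa-miR-141-3p: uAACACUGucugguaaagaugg
hsa-let-7a-5p: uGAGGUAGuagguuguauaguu
hsa-let-7b-5p: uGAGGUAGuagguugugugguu
hsa-miR-30a-5p: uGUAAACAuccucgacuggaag
hsa-miR-30c-5p: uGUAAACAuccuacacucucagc
hsa-miR-22-3p: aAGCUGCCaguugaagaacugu
hsa-miR-34a-5p: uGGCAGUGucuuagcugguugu
hsa-miR-4435: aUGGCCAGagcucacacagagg

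MIR9-3HG (chromosome 15, 89361579 to 89398487, plus strand), the host of miR-9-5p and miR-9-3p, was the called one on the list, at 2.18 and 2.97 TPM in shSASH1, against 6.95 and 6.32 TPM in shControl (log2 change -1.10 ± 0.18, adjusted p = 0.0151). Both shSASH1 libraries lay under both shControl libraries. MIR200CHG (chromosome 12, 6963246 to 6964447, plus strand) hosts miR-200c and miR-141, which repress the transcription factors ZEB1 and ZEB2 and so hold cells in an epithelial state, and their seeds AAUACUG and AACACUG differ. It was at 16.1 and 27.8 TPM in shSASH1, against 20.9 and 17.5 TPM in shControl (log2 change 0.14 ± 0.27, adjusted p = 0.719), with the shSASH1 libraries on either side of the shControl libraries. MIRLET7BHG hosts let-7a and let-7b, which share the seed GAGGUAG, and was at 6.597 and 10.1 TPM in shSASH1, against 7.53 and 7.22 TPM in shControl (log2 change 0.13). LINC00472 spans the loci of miR-30a and miR-30c, which share the seed GUAAACA, and was at 7.97 and 8.93 TPM in shSASH1, against 6.4 and 5.77 TPM in shControl (log2 change 0.42 ± 0.13, adjusted p = 0.0724). MIR22HG was at 16.6 and 17.1 TPM in shSASH1, against 13.5 and 14.1 TPM in shControl (log2 change 0.27 ± 0.09, adjusted p = 0.0785). In LINC00472 and MIR22HG both shSASH1 libraries were higher, yet neither passed. MIR34AHG, the host of the p53-induced miR-34a, was at 3.26 and 2.26 TPM in shSASH1, against 3.43 and 3.36 TPM in shControl and did not pass, and miR-4435 lies in both MIR4435-2HG and CYTOR, which is not on the list and rose (log2 change 0.85, adjusted p = 0.0123). Over the list of 9 microRNA processing genes 6 rose and none fell, where 18.8% of all tested genes were higher and 13.3% lower. The Argonaute gene AGO3 rose by 0.76 on the log2 scale, DICER1, which cuts the hairpin, by 0.75, and AGO1 by 0.68.

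Of 5 hosts of small nucleolar RNAs (snoRNAs), which guide the modification of ribosomal RNA, 2 rose and none fell. Over all tested genes 18.8% were higher and 13.3% lower. LINC02001 (chromosome 17, 35568109 to 35574843, plus strand), now named SNHG30, was at 35.5 and 38.8 TPM in shSASH1, against 24.8 and 24.2 TPM in shControl (log2 change 0.58 ± 0.08, adjusted p = 0.0108), with SNORD7 and exons of another gene in its span. SNHG4 (chromosome 5, 139274102 to 139284899, plus strand) was at 27.5 and 32.3 TPM in shSASH1, against 21.6 and 22.4 TPM in shControl (log2 change 0.42 ± 0.10, adjusted p = 0.0414); it overlaps exons of MATR3 and SIL1 and lost its call in 6 of 11 other settings. SNHG8 was at 89.6 and 72.95 TPM in shSASH1, against 81.7 and 90.01 TPM in shControl. SNHG15 was at 89.3 and 69.1 TPM in shSASH1, against 79.3 and 77.4 TPM in shControl, and SNHG19 at 34.3 and 26.8 TPM in shSASH1, against 38.4 and 32.8 TPM in shControl. These last 3 overlapped between groups. Among 4 box C/D snoRNP protein genes NOP56 fell (log2 change -0.90, adjusted p = 0.00725) and none rose.

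Of 7 lincRNAs listed as described in carcinoma, 2 rose and none fell, beside 18.8% of all tested genes higher and 13.3% lower. LINC01133 (chromosome 1, 159961218 to 159984750, plus strand) was at 127 and 125 TPM in shSASH1, against 63.3 and 64.3 TPM in shControl, a 1.98-fold higher mean (log2 change 0.97 ± 0.06, adjusted p = 0.00238). The libraries of each group were close to each other, and the median change of all tested genes in its 20 Mb window was 0.34. UCA1 (chromosome 19, 15828206 to 15836326, plus strand), named for urothelial carcinoma, was at 29.1 and 21.6 TPM in shSASH1, against 14.1 and 13.2 TPM in shControl (log2 change 0.84 ± 0.16, adjusted p = 0.0228). PVT1, the neighbour of MYC on chromosome 8, was at 4.23 and 4.41 TPM in shSASH1, against 4.796 and 4.84 TPM in shControl (log2 change -0.13 ± 0.14, adjusted p = 0.497). LINC01503 (log2 change -0.41), LINC00662 (-0.36), LINC00665 (0.01) and LINC00467 (0.38) did not pass. LINC00467 and SMIM25, the 2 lincRNAs listed for a described microprotein, were not called, nor were NEAT1 and MIR34AHG, the 2 listed as linked to p53.

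The 12 higher lincRNAs with the largest change ranged from RNAs with no read in shControl to RNAs of over 100 TPM in shSASH1. AC009275.1 (chromosome 7, 134416290 to 134432453, minus strand), now named LINC03060, was at 12.3 and 12.99 TPM in shSASH1, against 0 and 0 TPM in shControl. It was listed at 0 in both shControl libraries, on 97 and 82 rebuilt reads in shSASH1 and 0 and 0 in shControl, and limma gave a change of 3.77 (adjusted p = 0.00176), which depends on the pseudocount. LINC01699 (chromosome 1, 181236388 to 181238604, plus strand) was at 9.41 and 10.3 TPM in shSASH1, against 0 and 1.12 TPM in shControl, on 16 and 14 rebuilt reads in shSASH1 and 0 and 2 in shControl. LINC01637 (chromosome 22, 20957092 to 20964679, plus strand) was at 14.9 and 23.2 TPM in shSASH1, against 0.748 and 2.56 TPM in shControl (log2 change 2.98 ± 0.41, adjusted p = 0.0106). The shControl values of LINC01637 differed from each other by more than the shSASH1 values did in ratio, yet the groups lay far apart.

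IGFL2-AS1 (chromosome 19, 46189166 to 46203083, minus strand), named for the growth factor-like gene IGFL2, had the highest shSASH1 mean of these, at 154 and 108 TPM in shSASH1, against 25.6 and 21.3 TPM in shControl, a 5.6-fold higher mean (log2 change 2.42 ± 0.20, adjusted p = 0.00393). EBLN3P (chromosome 9, 37079857 to 37090507, plus strand), a relic of an endogenous bornavirus-like nucleoprotein gene, was at 103 and 147 TPM in shSASH1, against 35.1 and 31.5 TPM in shControl, 3.76-fold higher (log2 change 1.86 ± 0.18, adjusted p = 0.005504). SFTA1P (chromosome 10, 10784437 to 10794980, minus strand), a surfactant-associated pseudogene transcript, was at 74.5 and 52.6 TPM in shSASH1, against 14.7 and 11.7 TPM in shControl, 4.82-fold higher (log2 change 2.17 ± 0.21, adjusted p = 0.00501). In all 3 the lowest shSASH1 library stood above the highest shControl library by a wide gap. LINC01740 (chromosome 1, 212545694 to 212556065, plus strand) was at 38.6 and 30.5 TPM in shSASH1, against 6.16 and 4.83 TPM in shControl, 6.28-fold higher (log2 change 2.45 ± 0.17, adjusted p = 0.00308).

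The remaining 5 of the 12 were lower in level or less even. LINC01678 was at 4.75 and 7.49 TPM in shSASH1, against 0.59 and 0.336 TPM in shControl (log2 change 2.26, adjusted p = 0.00755). AL445483.1, now DDX59-AS1, was at 6.21 and 11.4 TPM in shSASH1, against 0.927 and 0.9895 TPM in shControl (log2 change 2.27, adjusted p = 0.00962), and its exons overlap those of the helicase gene DDX59. LINC01273 was at 5.11 and 10.04 TPM in shSASH1, against 1.14 and 1.47 TPM in shControl (log2 change 1.84, adjusted p = 0.0189). In these 3 the shSASH1 libraries were several times over the shControl libraries. C21orf91-OT1 was at 10.8 and 27.9 TPM in shSASH1, against 4.78 and 4.82 TPM in shControl (log2 change 1.67 ± 0.44, adjusted p = 0.04796), with replicate 2 far above replicate 1, and lost its call in 5 of 11 other settings. RASAL2-AS1 was at 7.95 and 10.4 TPM in shSASH1, against 2.46 and 2.23 TPM in shControl (log2 change 1.59 ± 0.18, adjusted p = 0.00672).

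**Figure D4:**
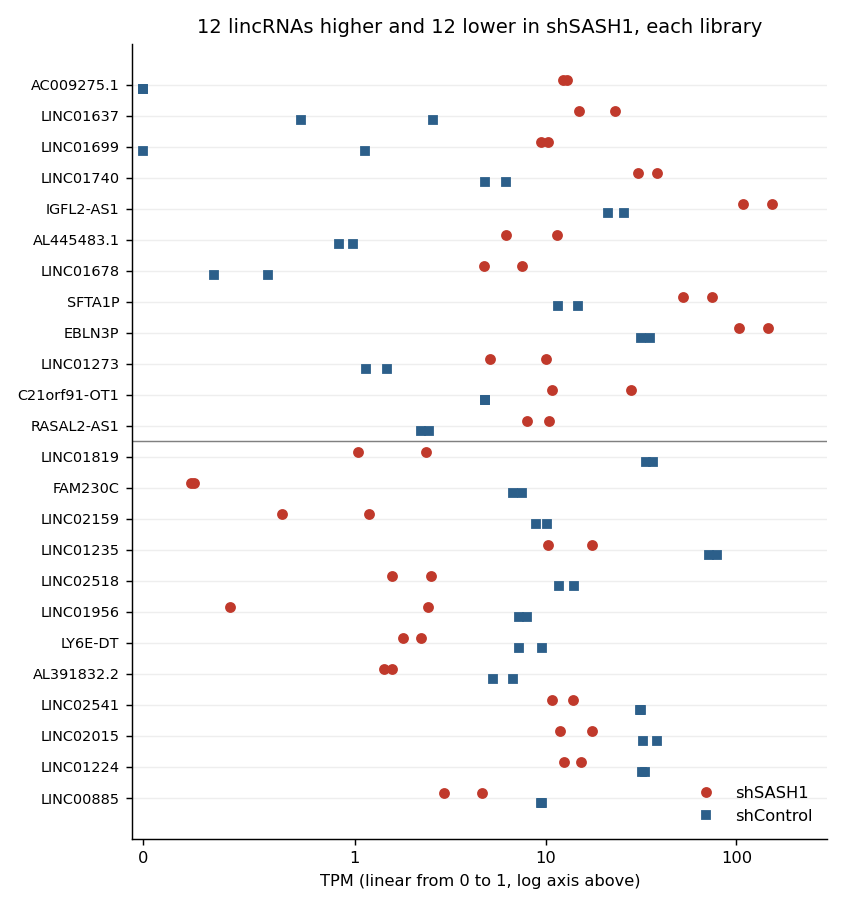
Level in each library (TPM, linear from 0 to 1 and log above) of the 12 higher lincRNAs (above the line) and the 12 lower lincRNAs (under it) with the largest change among those called, with red circles for shSASH1 and blue squares for shControl. The groups do not overlap for any of the 24, and AC009275.1 is at 0 in both shControl libraries and LINC01699 in 1.

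The lower lincRNAs were led by LINC01819 (chromosome 2, 43027853 to 43039547, minus strand), at 2.37 and 1.04 TPM in shSASH1, against 33.5 and 36.5 TPM in shControl, a 20.5-fold lower mean (log2 change -3.78 ± 0.27, adjusted p = 0.00313). LINC01235 (chromosome 9, 13406380 to 13433053, minus strand) was the most abundant of the 12, at 17.5 and 10.2 TPM in shSASH1, against 71.8 and 78.9 TPM in shControl, 5.43-fold lower (log2 change -2.40 ± 0.25, adjusted p = 0.00605). Both were even in shControl and spread more in shSASH1, where replicate 2 was the lowest library. FAM230C (chromosome 13, 18195297 to 18232024, plus strand), a member of the FAM230 family of noncoding RNAs, was at 0.241 and 0.226 TPM in shSASH1, against 6.73 and 7.54 TPM in shControl (log2 change -2.72 ± 0.18, adjusted p = 0.00299), on 3 and 2 rebuilt reads in shSASH1 and 78 and 102 in shControl. LINC02159 (chromosome 5, 160931778 to 160938626, minus strand) was at 1.18 and 0.658 TPM in shSASH1, against 8.95 and 10.2 TPM in shControl (log2 change -2.47 ± 0.21, adjusted p = 0.00403).

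A pair of lincRNAs on chromosome 6 fell together, in a window whose median change was -0.32. LINC02518 (chromosome 6, 113428540 to 113433421, minus strand) was at 2.51 and 1.57 TPM in shSASH1, against 11.8 and 14.2 TPM in shControl (log2 change -2.21 ± 0.21, adjusted p = 0.00508), and LINC02541 (chromosome 6, 113616927 to 113650090, minus strand) at 10.8 and 13.98 TPM in shSASH1, against 31.4 and 31.7 TPM in shControl (log2 change -1.29 ± 0.14, adjusted p = 0.00622). Their nearest tested coding gene was MARCKS, which encodes a membrane substrate of protein kinase C. It starts 423941 bases from LINC02518 and 207272 bases from LINC02541. MARCKS was at 240.0 and 209 TPM in shSASH1, against 425 and 429 TPM in shControl (log2 change -0.93, adjusted p = 0.00458). LINC01956 (chromosome 2, 118766965 to 118835110, minus strand) was at 0.412 and 2.41 TPM in shSASH1, against 7.22 and 8.005 TPM in shControl (log2 change -1.97, adjusted p = 0.03398), and its shSASH1 libraries differed more on the log2 scale than those of the other 11 lower lincRNAs named. It lost its call with a pseudocount of 0.1, with no filter and with no variance trend.

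LY6E-DT (chromosome 8, 142981738 to 143018437, minus strand) was at 1.78 and 2.23 TPM in shSASH1, against 7.21 and 9.56 TPM in shControl (log2 change -1.64, adjusted p = 0.00772) and overlaps exons of LY6E, a GPI-anchored surface protein gene. AL391832.2, now LNCATV, was at 1.42 and 1.57 TPM in shSASH1, against 5.33 and 6.78 TPM in shControl (log2 change -1.49). LINC02015 was at 17.5 and 11.9 TPM in shSASH1, against 38.5 and 32.5 TPM in shControl (log2 change -1.23). In these 3 both shSASH1 libraries lay under both shControl libraries. LINC01224 was at 15.4 and 12.5 TPM in shSASH1, against 33.4 and 31.9 TPM in shControl (log2 change -1.18), and LINC00885 at 4.67 and 2.92 TPM in shSASH1, against 9.42 and 9.56 TPM in shControl (log2 change -1.15).

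Where a lincRNA has a tested protein-coding neighbour, the changes of both can be set side by side. The nearest coding gene by start was tested for 152 lincRNAs, of which 47 were called, and 67 of the neighbours were called, where 32.0% of all tested genes and 34.6% of coding genes of at least 3 TPM were called. The 2 changes had the same sign in 99 of the 152 pairs. In 26 pairs both were called, and in 22 of these the direction was shared, 16 times higher and 6 times lower. Pearson's correlation of the changes across the 152 was 0.504 and Spearman's 0.420, and 0.443 and 0.416 with both changes centred on their chromosome windows. The points share libraries, some share a neighbour, and genes are not independent replicates, so these are descriptions. Among lincRNAs whose start lay within 50 kb but not head to head (77), both were called in 15 and the direction was shared in 14. For those over 50 kb away (42), both were called in 6 and the direction was shared in 4.

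LINC01637 lies 8016 bases from AIFM3, a relative of the apoptosis-inducing factor gene, which was at 6.54 and 9.83 TPM in shSASH1, against 0.758 and 0.917 TPM in shControl (log2 change 2.30, adjusted p = 0.00585). LINC01740 starts 19640 bases from ATF3, a stress-induced transcription factor, at 49.3 and 50 TPM in shSASH1, against 12.3 and 12.9 TPM in shControl (log2 change 1.90, adjusted p = 0.00156). The neighbour of EBLN3P is ZCCHC7, a cofactor of the nuclear exosome, at 78.7 and 92.2 TPM in shSASH1, against 19.8 and 19.6 TPM in shControl (log2 change 2.06, adjusted p = 0.00196). All 3 pairs were higher without overlap. SERPINB9P1 (log2 change 1.43, adjusted p = 0.0227) accompanied SERPINB9, the inhibitor of granzyme B, which rose (log2 change 1.71, adjusted p = 0.0115). With values centred on chromosome windows SERPINB9P1 lost its call. SFTA1P lies 3417 bases from CELF2, an RNA-binding protein gene, which rose (log2 change 0.76, adjusted p = 0.0441). DDX59 rose beside DDX59-AS1 (log2 change 0.56, adjusted p = 0.0177). In the other direction, LINC01956 starts 12568 bases from EN1, a homeobox gene, at 1.11 and 2.32 TPM in shSASH1, against 23.4 and 20.5 TPM in shControl (log2 change -3.11, adjusted p = 0.00391). ATP10B, a lipid flippase gene 86412 bases from LINC02159, fell as well (log2 change -1.46, adjusted p = 0.0143), and LY6E fell with LY6E-DT (log2 change -1.56, adjusted p = 0.00156). ZFP36L2, which promotes mRNA decay, fell 187062 bases from LINC01819 (log2 change -0.76, adjusted p = 0.0185).

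Other lincRNAs went another way than their neighbour or moved without it. IGFL1, a secreted growth factor-like gene 26669 bases from the start of IGFL2-AS1, was at 5.48 and 5.88 TPM in shSASH1, against 9.63 and 10.8 TPM in shControl and fell (log2 change -0.75, adjusted p = 0.0164) while the lincRNA rose. TOMM20, of the mitochondrial import receptor, rose (log2 change 0.55, adjusted p = 0.00532) while LNCATV fell. MPDZ, a tight junction scaffold gene, did not pass (log2 change 0.31, adjusted p = 0.115) beside LINC01235, nor did the transcription factor gene CEBPB (log2 change -0.23, adjusted p = 0.167) beside LINC01273, C21orf91 (log2 change 0.10, adjusted p = 0.423) beside C21orf91-OT1, ZNF91 (log2 change 0.22, adjusted p = 0.226) beside LINC01224 or the transferrin receptor gene TFRC (log2 change -0.44, adjusted p = 0.0919) beside LINC00885. AKR1B1, aldose reductase, did not pass beside AC009275.1 (log2 change 0.33, adjusted p = 0.522). ELDR, a transcript near EGFR named here after its values were seen, was at 5.08 and 7.92 TPM in shSASH1, against 3.65 and 3.86 TPM in shControl and was not called (log2 change 0.63 ± 0.23, adjusted p = 0.0977), while its nearest gene by start, LANCL2, fell (log2 change -1.52, adjusted p = 0.00631) and EGFR rose, at 2191 and 2203 TPM in shSASH1, against 1169 and 1075 TPM in shControl (log2 change 0.97, adjusted p = 0.003399).

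**Figure D5:**
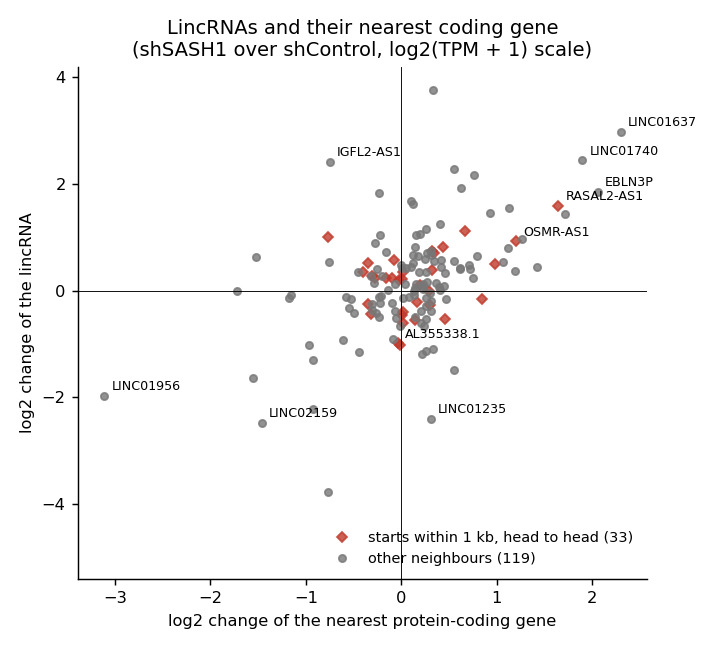
Log2 change of each lincRNA (y axis) against that of its nearest tested protein-coding gene (x axis), shSASH1 over shControl on the log2(TPM + 1) scale, with red diamonds for the 33 pairs whose starts lie head to head within 1 kb and grey circles for the other 119. LINC01637 and LINC01740 lie at the upper right with their neighbours, LINC01956 at the lower left, and IGFL2-AS1 and LINC01235 lie where the neighbour did not move the same way.

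Head-to-head pairs are transcribed away from a shared start region on opposite strands, and 33 lincRNAs formed such a pair with their nearest tested coding gene, with starts within 1 kb. Of these 10 lincRNAs were called, 12 neighbours were called, both were called in 5 and the direction was shared in 4, all higher. Over all 33 pairs the changes had the same sign in 15, against 84 of the 119 other pairs. Spearman's correlation was 0.215 in the head-to-head pairs and 0.451 in the others. The other pairs include some whose exons overlap, such as LY6E-DT with LY6E and AL445483.1 with DDX59, so reads could be shared. The part of such overlap in this contrast was not tested. RASAL2-AS1 starts 157 bases from RASAL2, a Ras GTPase-activating protein gene, at 45.2 and 49.8 TPM in shSASH1, against 14.9 and 14.04 TPM in shControl (log2 change 1.65, adjusted p = 0.00223). OSMR-AS1 (log2 change 0.93, adjusted p = 0.0352), now OSMR-DT, starts 29 bases from OSMR, the oncostatin M receptor gene, which rose (log2 change 1.20, adjusted p = 0.00869). OSMR-AS1 lost its call with no filter and with values centred on chromosome windows. PICART1 (log2 change 1.12, adjusted p = 0.01905) starts 229 bases from ITGA3, integrin alpha 3, which rose (log2 change 0.67, adjusted p = 0.004596). The exception among the 5 was AC104986.2, higher (log2 change 0.35, adjusted p = 0.0364) beside a lower VPS13B (log2 change -0.41, adjusted p = 0.0367). The lincRNA lost its call in 8 of 11 other settings. A change on 1 side of the start region was also seen. AL355338.1, now PCCA-DT, fell, at 44.9 and 44.1 TPM in shSASH1, against 90.8 and 87.1 TPM in shControl (log2 change -0.98 ± 0.06, adjusted p = 0.00274), while PCCA, a subunit of propionyl-CoA carboxylase that starts 167 bases away, was at 14.6 and 16.3 TPM in shSASH1, against 16.6 and 15.2 TPM in shControl (log2 change -0.04, adjusted p = 0.807). MNX1-AS1 fell likewise, at 4.54 and 5.69 TPM in shSASH1, against 11.3 and 11.3 TPM in shControl (log2 change -1.02 ± 0.14, adjusted p = 0.0108), beside the homeobox gene MNX1 (log2 change -0.01, adjusted p = 0.965). For PCCA-DT and MNX1-AS1 the groups lay apart in the lincRNA and met in the coding gene.

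RefSeq promoter windows on GRCh38.p14, from 250 bases before to 50 after a start, were found for 125 of the 178 lincRNAs, using the window nearest to the annotated start. They were searched on both strands for the AP-1 motif TGANTCA, the TEAD motif GGAATG, the NF-kB motif (GGG, any 2 bases, TTTCC), the interferon element (GAAA, any 2 bases, GAAA), the CRE TGACGTCA and the E-box CACGTG. The AP-1 motif was in 3 of 26 higher lincRNAs (11.5%) and 1 of 15 lower ones (6.67%), against 7.71% of all 35116 windows. The TEAD motif was in 3 of 26 higher (11.5%) and 4 of 15 lower ones (26.7%), against 14.0%. The interferon element was in 5 of 26 higher (19.2%) and 0 of 15 lower ones, against 3.57%, and these 5, named after their values were seen, were FAM111A-DT, HCG11, FOXD2-AS1, PSMB8-AS1 and PICART1. NF-kB motifs were in 1 of 26 higher and 0 of 15 lower ones against 1.91%, the CRE in none of either against 1.85%, and the E-box in 4 of 26 and 0 of 15 against 7.26%. Over all 125 lincRNA windows, called or not, the AP-1 motif was in 8%, the TEAD motif in 14.4% and the NF-kB motif in 6.4%. The interferon element was in 5.6% of the 125, the CRE in 2.4% and the E-box in 10.4%. Of the 125 windows 113 had a start within 1 kb of the annotated one. These matches are counts of letters in short windows and carry no test. Of the windows shown, 3 belong to head-to-head pairs in which both genes rose and 2 to lincRNAs that fell, 5′ to 3′ on the lincRNA's strand with any motif in capitals:
RASAL2-AS1 (chr1:178093944-178094243, minus strand): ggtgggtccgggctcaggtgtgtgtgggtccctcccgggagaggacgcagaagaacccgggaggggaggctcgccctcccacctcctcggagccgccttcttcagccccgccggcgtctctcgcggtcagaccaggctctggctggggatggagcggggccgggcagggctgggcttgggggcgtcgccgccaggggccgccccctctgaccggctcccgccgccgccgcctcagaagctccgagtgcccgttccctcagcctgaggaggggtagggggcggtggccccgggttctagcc
OSMR-AS1 (chr5:38845780-38846079, minus strand): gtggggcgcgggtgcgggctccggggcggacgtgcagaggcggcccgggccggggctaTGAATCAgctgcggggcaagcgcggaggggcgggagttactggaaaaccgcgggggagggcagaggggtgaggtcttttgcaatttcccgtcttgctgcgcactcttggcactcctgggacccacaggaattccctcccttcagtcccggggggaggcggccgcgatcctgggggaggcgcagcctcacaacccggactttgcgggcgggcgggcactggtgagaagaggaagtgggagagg
PICART1 (chr17:50055690-50055989, minus strand): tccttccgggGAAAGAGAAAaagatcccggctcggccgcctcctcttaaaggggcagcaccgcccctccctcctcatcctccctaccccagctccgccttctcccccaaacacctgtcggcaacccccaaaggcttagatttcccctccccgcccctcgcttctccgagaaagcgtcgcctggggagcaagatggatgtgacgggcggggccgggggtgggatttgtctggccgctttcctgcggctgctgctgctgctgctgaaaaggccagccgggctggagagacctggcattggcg
LINC02159 (chr5:160938577-160938876, minus strand): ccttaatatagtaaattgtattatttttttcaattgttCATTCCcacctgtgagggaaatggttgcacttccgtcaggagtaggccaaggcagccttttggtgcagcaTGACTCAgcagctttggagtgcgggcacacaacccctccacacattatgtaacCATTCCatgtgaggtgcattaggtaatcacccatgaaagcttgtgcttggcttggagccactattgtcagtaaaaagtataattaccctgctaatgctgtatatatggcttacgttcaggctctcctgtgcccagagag
LINC02518 (chr6:113433398-113433697, minus strand): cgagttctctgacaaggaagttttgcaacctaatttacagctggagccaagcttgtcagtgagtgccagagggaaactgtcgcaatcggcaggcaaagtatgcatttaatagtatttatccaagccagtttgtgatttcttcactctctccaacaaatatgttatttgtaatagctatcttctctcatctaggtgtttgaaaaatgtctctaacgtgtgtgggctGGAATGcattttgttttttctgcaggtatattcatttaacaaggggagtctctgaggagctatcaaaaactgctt

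The window of RASAL2-AS1 held none of the 6 motifs. OSMR-AS1 had an AP-1 match 192 bases before the start and PICART1 an interferon element 240 bases before it. LINC02159 had an AP-1 match 142 bases and TEAD matches 212 and 89 bases before the start, and LINC02518 a TEAD match 25 bases before it. LINC02159 and LINC02518 fell by 2.47 and 2.21 on the log2 scale, as given above. The windows of LINC01819, FAM230C, LINC02541, LINC02015 and LINC01224, which also fell and are not shown, held none of the 6 motifs. That of LINC00885, lower as well, had a TEAD match 37 bases before the start. A link between these matches and the changes was not tested.

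PSMB8-AS1 (chromosome 6, 32844086 to 32846495, plus strand) lies among the immunoproteasome and peptide transporter genes of the major histocompatibility region. It rose, at 9.996 and 14.1 TPM in shSASH1, against 5.07 and 6.197 TPM in shControl (log2 change 0.96 ± 0.20, adjusted p = 0.0279), with PSMB9, an immunoproteasome subunit, at 44.9 and 59.4 TPM in shSASH1, against 20.5 and 21.4 TPM in shControl (log2 change 1.26, adjusted p = 0.00739). Its exons overlap those of PSMB8, PSMB9 and TAP1, and whether counting used strand is not given in the sources used here: their reads cannot be told apart. FAM111A-DT (log2 change 0.70, adjusted p = 0.0225) overlaps FAM111A, which did not pass (log2 change 0.27, adjusted p = 0.0542). FOXD2-AS1 rose, at 16.9 and 34.6 TPM in shSASH1, against 8.36 and 8.07 TPM in shControl (log2 change 1.46 ± 0.34, adjusted p = 0.0358), and so did FOXD2, a forkhead factor gene (log2 change 0.93, adjusted p = 0.0321). ERVH48-1, derived from an endogenous retrovirus, rose, at 4.396 and 7.59 TPM in shSASH1, against 2.28 and 2.31 TPM in shControl (log2 change 1.05 ± 0.27, adjusted p = 0.044). In FOXD2-AS1 and ERVH48-1 replicate 2 of shSASH1 was well above replicate 1. Both lost their call with no filter, with no variance trend and with values centred on chromosome windows. PSMB8-AS1 lost its call with no filter and with values centred on chromosome windows. In all, 56 lincRNAs overlapped exons of another gene, 47 of them on the opposite strand and 24 on the same strand. Among the 122 with no such overlap 29 were higher and 17 lower.

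The calls of lincRNAs, like those of all tested genes, differed in number between chromosome regions. Tested genes were placed in 20 Mb windows holding 20 or more tested genes, and each window's median log2 change was taken; the bound of 0.25 used here was set with the values known. Of 25 lincRNAs in windows with a median above 0.25, 15 were higher and 2 lower, where 41.6% of all autosomal tested genes in such windows were higher and 5.35% lower. Of 11 in windows with a median under -0.25, none were higher and 5 lower, where 3.65% of all autosomal tested genes were higher and 43.1% lower. Of the 140 between, 23 were higher and 13 lower, beside 15.2% and 12.3% of all autosomal tested genes. The windows were sorted by the changes of their own genes, so these counts are a description. EBLN3P lies in the window of chromosome 9 with a median of 1.10, as do ZCCHC7 and the exosome subunit gene EXOSC3, at 61.7 and 62.5 TPM in shSASH1, against 19.9 and 18.7 TPM in shControl (log2 change 1.63, adjusted p = 0.00176). LINC01740, AL445483.1, RASAL2-AS1, LINC01699 and LINC01133 lie on chromosome 1 in windows with medians of 0.34 to 0.61. Genes in windows of 20 or more tested genes were also centred on their window's median. In that fit 26 lincRNAs were higher and 19 lower, and 44 of the 60 called remained called. C21orf91-OT1 and FAM230C lay in smaller windows and kept their values, yet C21orf91-OT1 lost its call in that fit. IGFL2-AS1 (window median -0.07), SFTA1P (0.05), LINC01637 (0.03) and LINC01819 (0.11) lie in windows with little shift. The part of these regional shifts in the lincRNA changes was not tested.

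Genes that make or remove such RNAs were counted from lists, to be read against the 18.8% of all tested genes called higher and the 13.3% called lower. Among 11 paraspeckle protein genes NUDT21 rose (log2 change 0.41, adjusted p = 0.0494) and none fell. Of 20 genes of the nuclear exosome and its adaptors, which degrade many noncoding transcripts, 2 rose and 3 fell. The 2 were ZCCHC7 and EXOSC3, both in the shifted window of chromosome 9, and EXOSC4 fell (log2 change -0.94), as did MPHOSPH6 (-0.50) and EXOSC2 (-0.42). Of 14 nonsense-mediated decay genes 4 rose, among them MAGOH (log2 change 0.61) and UPF3B (0.38), and SMG9 fell (-0.35). Of 14 genes of the Integrator complex, which cleaves nascent noncoding transcripts, 4 rose, with INTS12 (0.49), INTS13 (0.36) and INTS11 (0.32) the largest, and none fell.

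The other called lincRNAs are given in falling order of absolute change. The higher ones were LINC01535 (log2 change 1.26), LINC00243 (1.16), LINC00471 (1.13), LINC01269 (1.06), LINC01011 (1.04), LINC01719, LINC01139 (0.98), AC007342.4 (0.82), LINC01315 (0.75), OSER1-DT (0.74), APTR (0.71) and LINC01012 (0.53). Of these LINC01269 was the most abundant, at 39.99 and 42.5 TPM in shSASH1, against 20.4 and 18.1 TPM in shControl (adjusted p = 0.00435). The lower ones were LINC01963 (-1.13), LINC01836 (-0.91), AL135925.1 (-0.70), LINC01484 (-0.67), LINC00667 (-0.57) and AC092720.1 (-0.54). LINC01836 had the highest level of these, at 11.03 and 17.6 TPM in shSASH1, against 28.2 and 26.1 TPM in shControl (adjusted p = 0.0409). Of the other settings that tested it, AC092720.1 lost its call in 5 of 10, AL135925.1 in 4 of 10 and LINC01484 in 4 of 11. LINC01011 and LINC01012 each lost theirs in 3 of 11. LINC00243, LINC01269, OSER1-DT, APTR, LINC01963 and LINC00667 lost theirs in none, and the rest of this paragraph's called lincRNAs in 1 or 2. The 118 lincRNAs that did not pass had log2 changes from -1.14 for LNCAROD to 1.93 for LINC02004.

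The lincRNAs also differed within shSASH1. Replicate 2 was above replicate 1 for 112 of 178 in shSASH1 and for 75 of 178 in shControl, and over all 14458 tested genes for 8301 in shSASH1 and 6552 in shControl. For the 21 lincRNAs whose annotated exons merge into 1 block, MALAT1, NEAT1 and NORAD among them, a group chosen after the values were seen, it was above for 19 in shSASH1 and for 8 in shControl. The replicates lay more than 1 log2 unit apart for 14 lincRNAs in shSASH1 and for 5 in shControl. LINC02004, named after its values were seen, was an example, at 19.7 and 47.4 TPM in shSASH1, against 11.6 and 4.46 TPM in shControl, and was not called (log2 change 1.93 ± 0.58, adjusted p = 0.0647) although the groups did not overlap.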

How the data were processed

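RNA-seq libraries were made from TRIzol-extracted total RNA of MDA-MB-468 cells using NEBNext Ultra RNA reagents, per the labels' protocols, which do not state poly(A) selection. The authors deposited TPM per Ensembl gene. The submitters' processing notes name STAR, DESeq2 and hg38 with no version or role; the counter, annotation, gene lengths and use of strand were not given in the sources used here. A level in TPM falls when abundant genes rise. All gene identifiers matched GENCODE release 29 on hg38, from which types, 1-based coordinates, exons and transcripts were taken.

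The 14458 genes averaging 1 TPM or more were tested on log2(TPM + 1) by limma 3.58.1 (R 4.3.3; lmFit, then eBayes with a variance trend), two-sided, without a block, adjusted by Benjamini-Hochberg over all of them at 0.05. The procedure was tested on simulated data. With 2 libraries a group, the smallest two-sided p of an exact permutation test is 0.333, so the calls rest on the model. Reads were rebuilt as TPM times exon-union length; 88.8% to 89.3% of values of up to 20 reads came within 0.05 of a whole number. They are estimates. On them, chi-square per degree of freedom within a group was 24.0 in shSASH1 and 2.18 in shControl, so each library was kept as a sample.

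Alternatives were a pseudocount of 0.1, no filter, a mean of 5 TPM or more, median-of-ratios or quantile scaling, no variance trend, robust variances, voom on rebuilt reads, the replicate block, values centred by chromosome window, correction for GC and length, a minimum absolute log2 change of 1, lincRNAs without exon overlap, and each library left out.

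Named were the 5 most abundant lincRNAs, the 12 higher and 12 lower called ones with the largest absolute change and no overlap of groups, all members of the role lists, the nearest tested coding gene of those 24, and up to 3 called genes per machinery list; some items these rules name are not reported here, and other names were chosen after their values were seen, among them those called lincRNAs set beside a neighbour, head to head or by exon overlap. The lincRNAs and lists were chosen with earlier results of these data known. Alignments used blastn 2.17.0, and tables and plots Python 3.11.15 with pandas 2.3.3, numpy 2.4.6 and matplotlib 3.10.9.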

Additional observations from a re-analysis of the deposited data

How the results depend on the processing

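Depth limits the rarer lincRNAs: 82 of 178 had under 50 rebuilt reads in some library. With no filter on low values 23 lincRNAs were higher in place of 39, and with a minimum absolute log2 change of 1 there were 22. Leaving out 1 library gave 0 to 70 higher and 0 to 33 lower lincRNAs; the count was 0 in both directions without either shControl library, where the spread comes from the shSASH1 pair alone and 0 of 14458 genes passed in all, 70 and 33 without shSASH1 replicate 1, and 44 and 25 without shSASH1 replicate 2. SASH1 had a log2 change of -1.73 to -1.54 in these fits, with adjusted p = 0.106 without shControl replicate 1 and 0.104 without shControl replicate 2. The other settings kept the lincRNA counts within 1.5 times, from 26 to 40 higher and 15 to 23 lower. The 11 settings counted here and above leave out the fits with 1 library removed. In those 11, 37 of the 60 called lincRNAs, 21 higher and 16 lower, never lost their call where tested. Of these 37, 31 were tested in all 11 and 6 in 10, since a mean of 5 TPM or more left these 6 out. The labels do not say whether the replicate numbers pair the libraries. Deviations of same-numbered libraries correlated at -0.032 across genes, and with only 2 pairs this value cannot settle it. A fit with the replicate number as a block gave 40 higher and 19 lower lincRNAs, with 54 of the 60 still called. The directions that turned all belong to lincRNAs that were not called. Values follow only for the lincRNAs named by the rules above, and turns of the others are not listed. With median-of-ratios scaling MALAT1 was at -0.062, SNHG15 at -0.057 and LINC00665 at -0.046, with quantile normalization SNHG15 at -0.11 and LINC00665 at -0.093, with voom on rebuilt reads MALAT1 at -0.075, SNHG15 at -0.063 and LINC00665 at -0.058, after the length and GC correction MALAT1 at -0.14, NORAD at -0.015, SNHG15 at -0.038 and LINC00665 at -0.099, and centred on windows LINC01895 at -0.013, LINC00467 at -0.033 and PVT1 at 0.19. With 1 library left out, MALAT1 ran from -0.26 to 0.26, NEAT1 from -0.16 to 0.72, NORAD from -0.027 to 0.22, LINC01895 from -0.058 to 0.33, SNHG8 from -0.23 to 0.064, SNHG15 from -0.18 to 0.19, LINC00665 from -0.036 to 0.065, MIR200CHG from -0.24 to 0.52 and MIRLET7BHG from -0.14 to 0.40. The cause of these turns was not tested.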
